A study of Mus musculus with 12 samples.

Results

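The arrays described here are the 4 that carried total CD8+ T cells of the mesenteric lymph node (MLN), out of 12 arrays in the series. They were chosen by their labels alone: an AID KO array with the WT array of its own slide, and a uMT array with the WT array of its own slide. All mice were labelled female C57BL/6, and WT, AID KO and uMT were the only genotypes. AID is the deaminase with which activated B cells switch and mutate their antibody genes, and in uMT mice B cell development stops early, since pro-B cells cannot put a mu heavy chain on their surface. Cells were enriched with magnetic beads and sorted by flow cytometry, and 4 further arrays held total CD8+ T cells of the peripheral lymph node (PLN), given here only as the other site of the same contrast. There was 1 array per knockout genotype and site, the submitters describe the design as unreplicated, and no label says how many mice stood behind an array. The p-values below come from a fit that takes AID KO and uMT as 1 knockout group at each site. Its error is the disagreement between the AID KO and uMT pairs of a site. The p-values therefore measure a spread that mixes genotype and slide and may be technical. Genotypes are given as labelled, and every direction refers to arrays so labelled.

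Type I interferons bind the receptor pair Ifnar1 and Ifnar2, whose kinases Jak1 and Tyk2 activate a complex that holds Stat2 and Irf9. It binds a short repeated element in the promoters of interferon-stimulated genes, which encode antiviral effectors, sensors of foreign nucleic acid, the ubiquitin-like Isg15 with its enzymes, and regulators that strengthen or damp the response. In T cells the same genes are switched on by interferon made by other cells, and Ly6a, which encodes Sca-1, is among them. Immediate early genes such as Nr4a1 and Dusp4 follow antigen receptor and MAP kinase signals within a short time.

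The letters below are the 250 bases before the annotated start of 6 genes that were higher in both knockout arrays, taken from RefSeq promoters of build GRCm38.p6 and written 5′ to 3′ on the strand of the gene. They are shown because these genes, several of them among the largest shared differences, carry the same letters there. Capitals mark the core of the interferon-stimulated response element, GAAANNGAAA, searched on both strands, where N is any base and matches may overlap.
Rsad2 (chr12:26456453-26456702, minus strand): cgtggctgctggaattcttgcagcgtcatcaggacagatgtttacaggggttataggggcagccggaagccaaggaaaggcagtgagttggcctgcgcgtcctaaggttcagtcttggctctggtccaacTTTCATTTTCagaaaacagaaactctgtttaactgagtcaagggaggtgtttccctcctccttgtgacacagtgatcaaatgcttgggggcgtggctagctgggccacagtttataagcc
Ifit3b (chr19:34607707-34607956, plus strand): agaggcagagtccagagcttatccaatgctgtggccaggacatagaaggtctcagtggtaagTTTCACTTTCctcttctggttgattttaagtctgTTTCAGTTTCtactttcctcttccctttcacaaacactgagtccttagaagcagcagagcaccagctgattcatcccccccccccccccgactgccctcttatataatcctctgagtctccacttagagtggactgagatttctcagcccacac
Ifit3 (chr19:34583279-34583528, plus strand): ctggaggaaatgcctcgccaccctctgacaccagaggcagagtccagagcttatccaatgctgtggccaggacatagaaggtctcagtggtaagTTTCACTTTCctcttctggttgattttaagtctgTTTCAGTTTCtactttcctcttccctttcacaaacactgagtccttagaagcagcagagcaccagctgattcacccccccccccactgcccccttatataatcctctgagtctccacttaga
Ifit1 (chr19:34640639-34640888, plus strand): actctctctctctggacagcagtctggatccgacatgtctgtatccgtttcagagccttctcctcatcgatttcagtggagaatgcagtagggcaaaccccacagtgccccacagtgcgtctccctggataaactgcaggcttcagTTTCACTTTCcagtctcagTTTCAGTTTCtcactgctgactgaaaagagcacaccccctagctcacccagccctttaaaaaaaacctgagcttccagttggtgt
Isg15 (chr4:156200819-156201068, minus strand): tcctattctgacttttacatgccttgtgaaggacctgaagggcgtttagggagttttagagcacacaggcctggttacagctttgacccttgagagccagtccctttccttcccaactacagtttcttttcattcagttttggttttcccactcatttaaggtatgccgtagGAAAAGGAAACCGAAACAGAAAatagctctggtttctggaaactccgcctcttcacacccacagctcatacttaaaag
Irgm2 (chr11:58214727-58214976, plus strand): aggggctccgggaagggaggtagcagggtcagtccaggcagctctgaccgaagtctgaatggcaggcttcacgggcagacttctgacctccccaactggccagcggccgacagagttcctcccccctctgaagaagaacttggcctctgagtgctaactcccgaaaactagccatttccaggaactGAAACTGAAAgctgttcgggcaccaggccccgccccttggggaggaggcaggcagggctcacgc

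In Ifit3 and Ifit3b, neighbouring copies of a family of RNA-binding effectors, the matches lay 156 to 147 and 122 to 113 bases before the start and 188 to 179 and 154 to 145 bases before it. In Ifit1 they lay 104 to 95 and 85 to 76 bases before the start. Isg15 held 3 overlapping matches between 78 and 57 bases before its start, Rsad2 held 1 at 120 to 111 and Irgm2 held 1 at 64 to 55. Over windows of 300 bases, which end 50 bases after the start, 1079 of 27025 genes (3.99%) held a match. The share was 21 of 55 among tested genes of the type I interferon list with a promoter in the table, 8 of 8 for the GBP and IRG GTPases, 3 of 6 for the Schlafen family, 5 of 15 for MHC class I presentation and 0 of 6 for the Ly6 family. Among the immediate early genes 2 of 29 held one, and among the naive and quiescence genes 0 of 15. Lists outside the interferon response held it too, with 5 of 23 ribosomal protein genes and 3 of 14 gut homing and retinoid genes. The 21 interferon genes with a match had a median log2 difference from WT of 0.75 in AID KO and 1.30 in uMT, and the 34 without one 0.34 and 0.67. A match is only a string of letters, and Ifi44, Oasl2 and Irf7 had none in this window. Ly6a, Oas2 and Usp18 had no promoter sequence to search, so the shares above say nothing of them.

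The 4 arrays had the profile of CD8+ T cells. All 12 tested CD8+ T cell markers were well above background on every MLN array. Cd8a, which encodes a chain of the CD8 co-receptor, stood at 5.86 and 5.44 in WT, 5.48 in AID KO and 5.90 in uMT, so it differed by 0.04 and 0.05 within the slides (with quantile normalization or with the mean of its probes the fitted difference was -0.08 or -0.10). Levels throughout are log2 of the scanner's processed signal minus the array's 75th percentile, and a difference is a knockout array minus the WT array of its slide. A feature is a gene, shown by its brightest kept probe, or a probe with no gene name. Array correlations over all features were 0.99 and 0.983 within the slides, 0.982 between the WT arrays and 0.983 between the knockouts. On both slides the WT array sat at row 2, column 3 and the knockout at row 2, column 4, so genotype and position on the slide cannot be told apart.

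The AID KO pair had 413 features at least 2-fold higher (1.65% of 25019) and 510 at least 2-fold lower (2.04%), and the uMT pair 952 higher (3.8% of 25021) and 885 lower (3.54%). In both pairs 136 features were at least 2-fold higher (0.544%) and 122 at least 2-fold lower (0.488%), and 95 passed 2-fold in opposite directions (0.38%). By sign alone 7340 were higher in both (29.3%) and 6721 lower in both (26.9%). Both knockouts stood above both WT arrays for 3937 features (15.7%). The differences of the pairs, which share no array, correlated weakly across features (Pearson r = 0.172, Spearman rho = 0.179, 25019 features that are not independent). The limma test of the mean knockout difference, with a term for each pair and 2 residual degrees of freedom, passed 0 of 25021 features at an adjusted p of 0.05 (0%), while 2448 (9.78%) had an unadjusted p under 0.05, of which 1276 (5.1%) were higher and 1172 (4.68%) lower. With normexp background correction, which damps dim probes, the same test called 113 features, 81 higher and 32 lower. Every gene below is therefore given by its values, and a normexp adjusted p (limma) stands with it where that setting called it. For the 38 genes so marked, the highest adjusted p over all settings lay between 0.532 (Defa3) and 0.794 (Nr4a1).

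**Figure D1:**
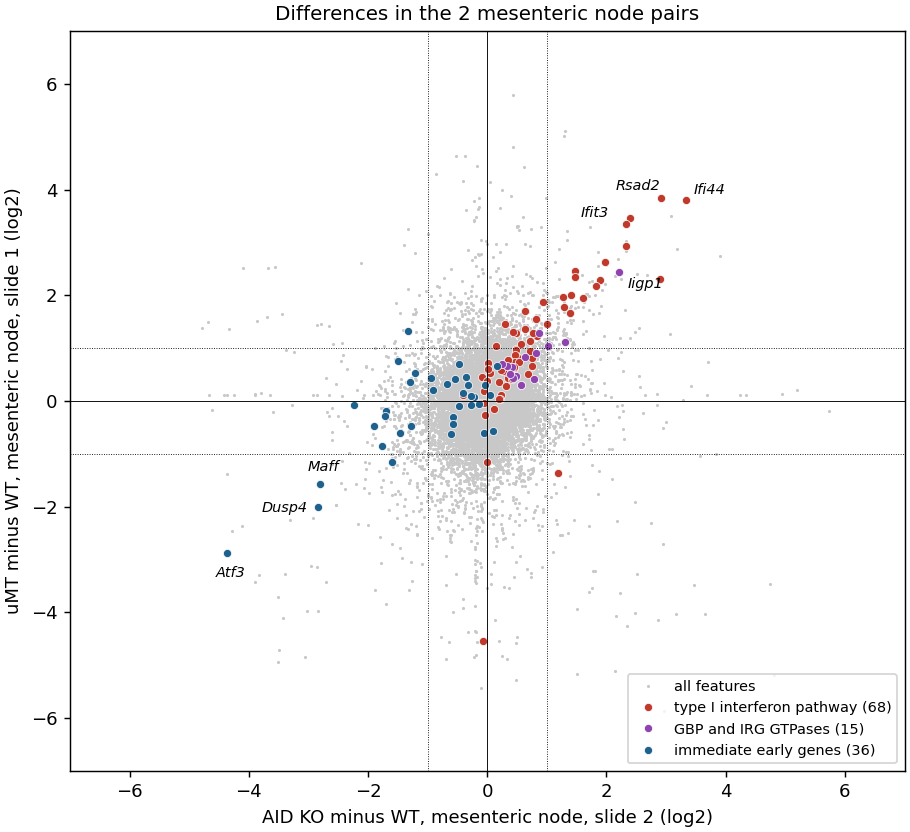
Each point is a feature, with its log2 difference between AID KO and WT in the mesenteric node on the x axis and between uMT and WT on the y axis; dotted lines mark 2-fold. Genes of the type I interferon list (red) and GBP and IRG GTPases (purple) lie mostly in the upper right, where 16 and 3 of them pass 2-fold in both pairs, and the immediate early genes (blue) spread to the left.

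Where the features that passed 2-fold were measured well above background on all 4 arrays, the higher ones led: 56 of 20565 (0.272%) were higher in both and 27 (0.131%) lower in both. Of those 56, 34 were named genes, and the leading ones were interferon-stimulated. The interferon list accounted for 16 of the 136 features at least 2-fold higher in both and 0 of the 122 lower ones. With the GBP and IRG, Schlafen, MHC class I and Ly6 lists it accounted for 21. All lists were chosen with earlier results of these data known, so their counts describe them and are no independent evidence.

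Of the type I interferon list, 57 of 68 tested genes were higher in both knockout arrays and 5 lower in both, against 29.3% and 26.9% of all features. The median difference was 0.48 in AID KO and 0.83 in uMT, and -0.01 and 0.04 over all features. In 51 of the 68 both knockouts stood above both WT arrays, against 15.7% of all features. The uMT difference was the larger in 56 of 68, against 13416 of 25021 features. Over all features the differences spread more widely in the uMT pair (standard deviation 0.62) than in the AID KO pair (0.46). None passed the limma test, and 45 had an unadjusted p under 0.05 with a higher level, against 5.1% of all features, while 0 had it with a lower one. The WT arrays differed from each other by a median of -0.09 over the list. With normexp, 23 of the 81 features called higher were on this list, and 0 of the 32 called lower.

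On their brightest probes the receptors and kinases were not higher. Ifnar1 stood at 3.13 and 3.24 in WT, 3.10 in AID KO and 3.09 in uMT. Ifnar2 stood at 2.87 and 2.77 in WT, 2.73 in AID KO and 2.60 in uMT, so neither was higher in a knockout. Their other probes disagreed, with Ifnar1 at 0.16 and 0.77 on one and -0.20 and -0.46 on another, and Ifnar2 at -0.20 and 0.28. Jak1 differed by -0.06 and -0.03. Tyk2 was at 0.00 in AID KO and -1.15 in uMT, where the WT array of that slide (2.57) was higher than the other WT array (1.81). The interferon genes themselves were dim: of the 2 tested ligands, Ifnk and Ifna2, neither was well above background on all 4 arrays. Ifna2 stood at -0.28 and -3.67 in WT, -3.74 in AID KO and -4.81 in uMT, so a single WT array stood apart.

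Transcription factors of the pathway were higher in 7 of 8 cases. Irf7, the factor that amplifies interferon production, stood at 5.37 and 5.50 in WT, 6.79 in AID KO and 7.15 in uMT. The WT and knockout levels did not overlap, and the fitted difference was 1.53 ± 0.19 (SE; limma adjusted p = 0.226). Stat2 differed by 0.71 and 0.94 and Irf9 by 0.54 and 0.73, whereas Irf1 differed by -0.01 and 0.37. The normexp adjusted p was 0.000544 for Irf7 and 0.0437 for Stat2. Parp14 differed by 0.45 and 0.65 and Irf8 by 0.32 and 0.29.

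On their brightest probes all 8 sensors of nucleic acid were higher in both knockouts, with medians of 0.63 in AID KO and 1.42 in uMT. Dhx58, a helicase that tunes the RNA sensors, stood at 0.42 and 0.39 in WT, 1.66 in AID KO and 2.39 in uMT. Ifih1, the sensor of long double-stranded RNA, differed by 1.00 and 1.46, and Ddx60 by 0.93 and 1.88. Cgas and Sting1, of the pathway that senses DNA, differed by only 0.22 and 0.20 in AID KO and 0.04 in uMT. A second Cgas probe gave -0.50 and 0.13. The normexp adjusted p was 0.00102 for Dhx58, 0.00652 for Ifih1 and 0.0286 for Ddx60.

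The enzymes and substrate of Isg15 conjugation were higher in 5 of 5 cases. Isg15 itself stood at 3.73 and 4.01 in WT, 5.49 in AID KO and 6.08 in uMT, with no overlap. Usp18, which removes Isg15 and also blocks the interferon receptor, differed by 1.40 and 2.01, the ligase Herc6 by 0.57 and 1.07 and the activating enzyme Uba7 by 0.46 in each pair. The normexp adjusted p was 0.000178 for Isg15 and 0.00082 for Usp18. Of the negative regulators 3 of 4 were higher in both; Socs1, an inhibitor of Jak kinases, differed by 0.30 and 1.46 and Socs3 by -0.09 and 0.45.

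Antiviral effectors formed the largest role, with 34 of 37 higher in both pairs and 12 at least 2-fold. Rsad2 (viperin), which makes a chain-terminating nucleotide, stood at -1.54 and -2.18 in WT, 0.74 in AID KO and 2.30 in uMT. Its neighbour Cmpk2, which supplies that enzyme's substrate, stood at 0.15 and -0.12 in WT, 1.35 in AID KO and 2.61 in uMT. Both knockouts lay above both WT arrays in each case, and the fitted Rsad2 difference was 3.38 ± 0.34 (limma adjusted p = 0.192). A second Rsad2 probe gave 2.61 and 4.45. In the normexp setting the adjusted p was 5.7e-05 for Rsad2 and 0.00122 for Cmpk2.

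The Ifit genes, which bind viral RNA, showed the same order of arrays. Ifit1 stood at -0.09 and -0.24 in WT, 2.08 in AID KO and 2.84 in uMT (fitted difference 2.62 ± 0.22, limma adjusted p = 0.159). Ifit3 stood at 1.68 and 1.55 in WT, 3.87 in AID KO and 5.03 in uMT. Ifit3b, whose probe may share signal with Ifit3, stood at -0.53 and -0.62 in WT, 1.77 in AID KO and 2.94 in uMT. Ifit2 of the same cluster differed less, by 0.47 and 0.87. With normexp these 3 large differences were called, at adjusted p of 2e-05 for Ifit1 and Ifit3 and 2.34e-05 for Ifit3b; over all settings their adjusted p ran up to 0.57, 0.556 and 0.57.

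The oligoadenylate synthetases, which activate the RNA-degrading RNase L, and their relatives were also higher. Oas2 stood at 3.10 in each WT array, 4.98 in AID KO and 5.40 in uMT. Oasl2 stood at 0.93 and 0.65 in WT, 2.62 in AID KO and 3.56 in uMT. Oasl1 differed by 1.82 and 2.17 and Oas1a by 1.60 and 1.95, while Oas3 differed by 0.68 and 0.51. Oas1g went opposite ways, by 1.18 and -1.37; its WT arrays stood at -0.88 and -4.12, further apart than either pair. In the normexp setting the adjusted p was 7.77e-05 for Oas2, 5.7e-05 for Oasl1 and Oasl2 and 8.11e-05 for Oas1a. The size of the Oas2 difference depended on the probe, since a second and dimmer one gave 0.91 and 1.15.

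Ifi44, an antiviral effector, was not well above background on either WT array and stood at -0.95 in AID KO and -0.78 in uMT. It was at least 9.98-fold higher in the knockouts, the bound being taken from the dimmest probes still above background (limma adjusted p = 0.149). Ifitm3, a membrane protein that blocks viral entry, was likewise not well above background in WT and at least 4.01-fold higher in the knockouts (limma adjusted p = 0.185). In the normexp setting the adjusted p was 8.11e-05 for Ifi44 and 0.0346 for Ifitm3. Some abundant effectors differed little: Ms4a4b, at 7.44 and 7.85 in WT, differed by 0.19 and 0.36, and Shisa5, at 8.17 and 8.69, by -0.05 and 0.19. Bst2 (tetherin) differed by 0.44 and 1.30 and Trim30a by 0.48 and 1.29, both larger in uMT.

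**Figure D2:**
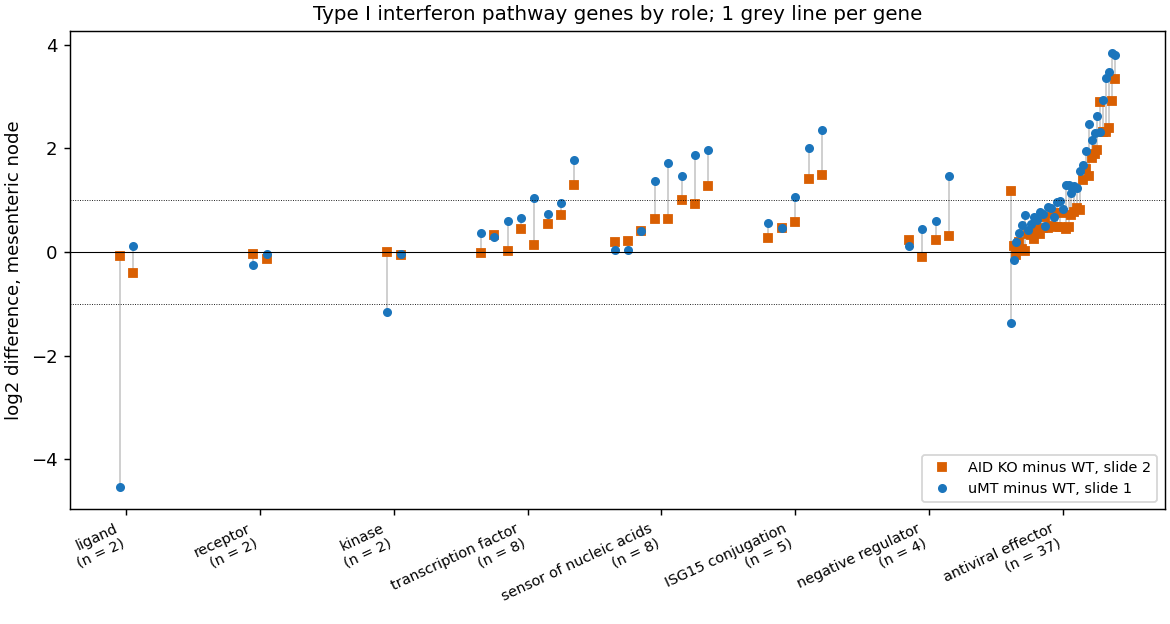
The log2 difference from WT in the mesenteric node (y axis) is shown for each tested gene of the type I interferon list, grouped by role, with AID KO as orange squares and uMT as blue circles joined by a grey line per gene. The brightest probes of receptors and kinases lie at or below 0, while 34 of 37 antiviral effectors and 8 of 8 sensors lie above 0 in both.

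The GBP and IRG families are GTPases that attack vacuoles holding pathogens and answer to both types of interferon. All 15 tested members were higher in both knockouts, with medians of 0.56 in AID KO and 0.67 in uMT. Iigp1 stood at 1.39 and 1.06 in WT, 3.27 in AID KO and 3.83 in uMT (fitted difference 2.33 ± 0.17, limma adjusted p = 0.159). Irgm2 stood at 3 and 2.69 in WT, 3.99 in AID KO and 4.11 in uMT. Gbp6 stood at 1.85 and 1.64 in WT, 2.66 in AID KO and 2.89 in uMT. Normexp gave an adjusted p of 1.9e-05 for Iigp1, 0.00496 for Irgm2 and 0.011 for Gbp6. In 14 of the 15 the knockouts stood above both WT arrays. The uMT difference was the larger in 9 of 15, near the share over all features (13416 of 25021). The lead of uMT seen in the interferon list was not found in every family.

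The Schlafen family includes regulators of T cell quiescence. Read from their brightest probes, these genes were higher in both pairs in 6 of 6 cases, with medians of 0.62 and 0.88. Second probes gave -0.17 and 0.45 for Slfn9 and 0.22 and 0.43 for Slfn8. Slfn5 stood at 2.17 and 1.72 in WT, 3.01 in AID KO and 4.05 in uMT, and its other probes gave 1.04 and 1.73, and 0.72 and 1.49. Slfn1 differed by 0.91 and 0.88 and Slfn2 by 0.53 and 0.88. Normexp gave an adjusted p of 0.000846 for Slfn5 and 0.0393 for Slfn1.

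Presentation of antigen on MHC class I was higher in both in 14 of 18 cases, but by little in AID KO, with medians of 0.11 and 0.33. H2-T24, a nonclassical class I gene, was the exception at 0.96 and 1.18 (normexp adjusted p = 0.0286), and Tap1, a peptide transporter, differed by 0.42 and 0.32 on its brighter probe and by 0.39 and -0.52 on the other. H2-K1 and B2m, at levels above 7 in each array, differed by 0.03 and 0.02 in AID KO and by 0.33 and 0.29 in uMT. The interferon-gamma axis was mixed, with 4 of 8 higher in both: the chemokine Cxcl10 stood at -0.10 and -0.20 in WT, 0.55 in AID KO and 1.90 in uMT, whereas Ifng itself differed by -1.23 and -0.34.

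Of the Ly6 family 8 of 12 were higher in both. Ly6a stood at 2.33 and 1.97 in WT, 3.22 in AID KO and 4.10 in uMT, with no overlap (fitted difference 1.51 ± 0.18, limma adjusted p = 0.216). With normexp it was 1.45 (adjusted p = 0.000899, and 0.593 at the highest over all settings). Ly6c1 and Ly6c2, near-identical markers of memory CD8+ T cells whose probes may share signal, differed by 0.12 and 0.09 in AID KO and 0.58 and 0.54 in uMT. Ly6e differed by 0.11 and 0.23.

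**Figure D3:**
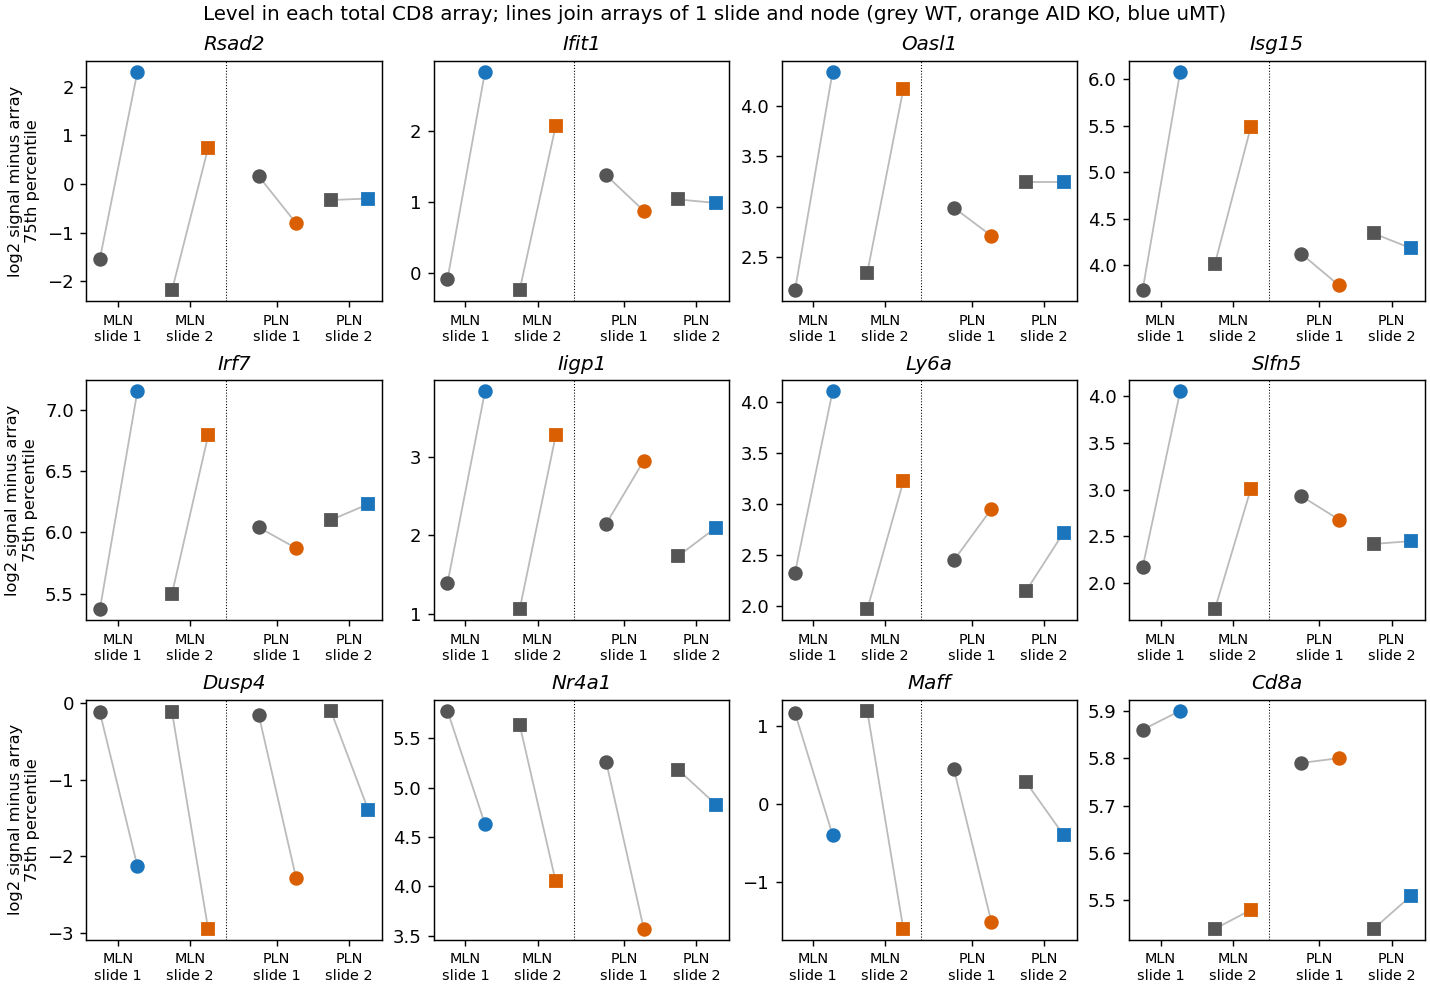
Levels of 12 genes on each total CD8 array, in log2 units relative to the array's 75th percentile (y axis, scaled per gene); lines join the WT and knockout arrays of 1 slide and site. Rsad2, Ifit1, Oasl1, Isg15, Irf7 and Slfn5 are highest in the 2 knockout arrays of the mesenteric node, Dusp4 is low in all 4 knockout arrays, and Cd8a moves by slide.

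The PLN pairs, which share no array with the MLN pairs, did not show the interferon difference for the list as a whole. Over the same 68 genes the median differences were -0.16 for AID KO and 0.01 for uMT. In AID KO 20 of the 68 were higher, against 13198 of 25021 features, and in uMT 35, against 13002. Rsad2 in PLN stood at 0.16 and -0.33 in WT, -0.81 in AID KO and -0.30 in uMT. Ifit1 in PLN stood at 1.38 and 1.04 in WT, 0.88 in AID KO and 0.99 in uMT. Not every gene followed this: Ly6a was higher in both PLN pairs, by 0.49 in AID KO and 0.57 in uMT, and Iigp1 by 0.80 and 0.37. The fitted difference between the sites was 3.85 ± 0.49 for Rsad2 (limma adjusted p = 0.7) and 2.89 ± 0.31 for Ifit1 (limma adjusted p = 0.67). For the whole table this interaction passed 0 of 25021 features (0%), with 820 (3.28%) at an unadjusted p under 0.05; with normexp it passed 24. At least 2-fold in both PLN pairs were 33 features higher (0.132%) and 68 lower (0.272%).

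Set against the WT PLN array of the same slide, most interferon genes were lower in WT MLN and higher in knockout MLN. In WT, 52 of the 68 interferon genes were lower in MLN than in PLN on both slides, with medians of -0.23 and -0.21, against 8374 of 25021 features. The knockout MLN arrays stood above the WT PLN array of their slide, by a median of 0.73 in uMT and 0.32 in AID KO, and 56 of 68 genes did so on both slides, against 7848 of 25021 features. Rsad2 shows it: WT MLN lay below WT PLN, and both knockout MLN arrays lay above it. The first of these comparisons shares the WT MLN arrays with the knockout differences above, and the second shares the knockout MLN arrays, so neither is independent of them. The second also differs in both genotype and site. The MLN and PLN arrays of each knockout were on different slides and were not compared with each other.

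**Figure D4:**
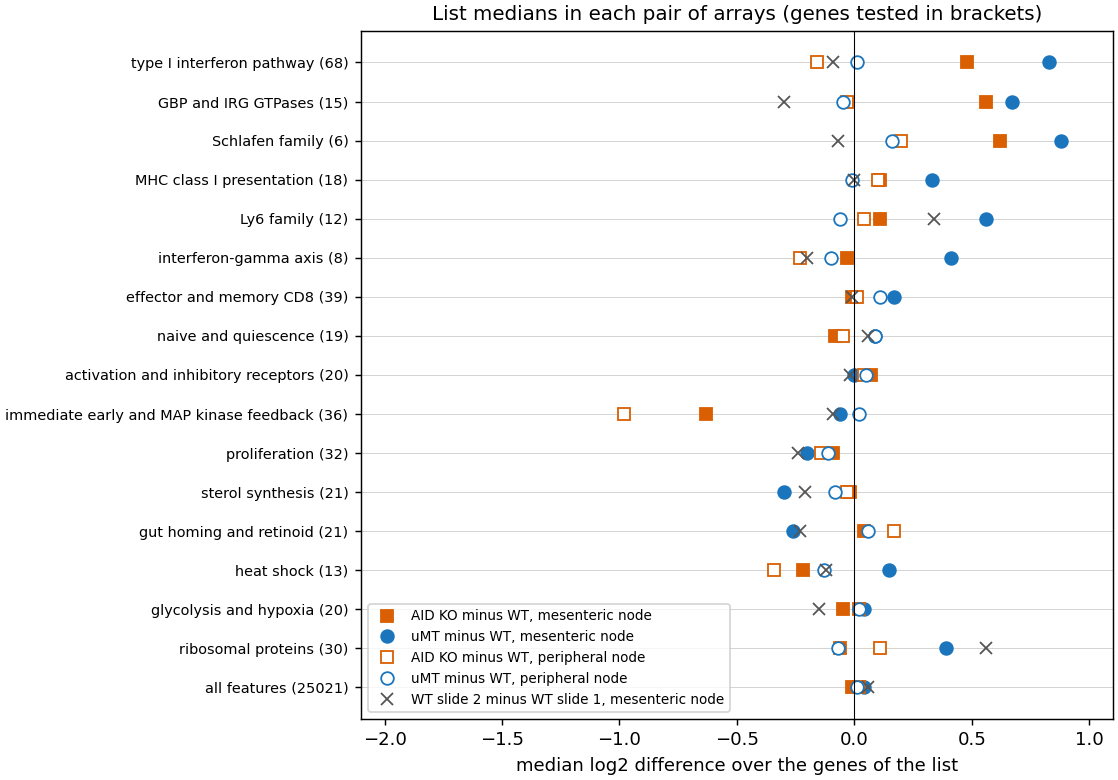
Median log2 difference (x axis) over the tested genes of each list, with filled markers for the mesenteric node, open markers for the peripheral node and crosses for WT of slide 2 minus WT of slide 1. The type I interferon, GBP and IRG and Schlafen lists lie at 0.48 or more in both mesenteric pairs and between -0.16 and 0.20 in the PLN pairs.

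Among the lists of gene groups, the immediate early genes had the lowest median in the array labelled AID KO. Of 36 tested genes 18 were lower in both MLN pairs and 2 higher, against 26.9% and 29.3% of all features. At least 2-fold lower in both were 4 of the 36, against 122 of all 25021 features (0.488%). The MLN medians were -0.63 in AID KO and -0.06 in uMT. In AID KO 3 of the 36 genes were higher, against 12265 of 25019 features, and in uMT 17, against 13375 of 25021. In PLN the medians were -0.98 and 0.02. At both sites the array labelled AID KO had the lower median; the difference between the genotypes was not tested. None passed the limma test, and 8 had an unadjusted p under 0.05 with a lower level, against 4.68% of all features. With normexp, 4 of the 32 features called lower were on this list.

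Dusp4, a phosphatase that ends MAP kinase signals, stood at -0.12 in each WT array, -2.95 in AID KO and -2.13 in uMT (fitted difference -2.42 ± 0.30, limma adjusted p = 0.241). It was also lower in both PLN pairs, by 2.13 in AID KO and by 1.30 in uMT. Maff, a small partner of AP-1 factors, stood at 1.17 and 1.20 in WT, -1.61 in AID KO and -0.40 in uMT. Nr4a1 (Nur77), a readout of antigen receptor signals, stood at 5.78 and 5.64 in WT, 4.05 in AID KO and 4.63 in uMT. The WT arrays of each gene lay close together and above both knockouts. With normexp, Dusp4 (adjusted p = 0.000283), Maff (0.0036) and Nr4a1 (0.0437) were called, and over all settings their highest adjusted p were 0.581, 0.708 and 0.794.

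Atf3, a stress-induced repressor, was well above background in both WT arrays (-2.26 and -2.50) and in neither knockout, which makes it at least 3.73-fold lower. Nfil3, a regulator of cytokine genes, differed by -2.05 and -1.16. Normexp gave an adjusted p of 0.0164 for Atf3 and 0.0182 for Nfil3. Other genes of the list went apart: Fos differed by -1.30 in AID KO and 0.35 in uMT, Dusp1 by -1.5 and 0.76, and Rgs1 by -1.33 and 1.33. In these 3 the uMT array lay above its WT array.

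Genes of effector and memory CD8+ T cells were mixed, with 14 of 39 higher in both and 8 lower. Gzma, a granzyme of cytotoxic granules, stood at 1.38 and 1.52 in WT, 2.85 in AID KO and 2.57 in uMT. Klrk1 (NKG2D) stood at -1.69 and -1.64 in WT, 0.61 in AID KO and -0.76 in uMT, and was higher in both PLN pairs too, by 1.73 and 1.01. Both were called with normexp (adjusted p = 0.00481 and 0.0331, up to 0.673 and 0.755 over all settings). Gzmb differed by -0.01 and 0.87 and Prf1 by -0.16 and -0.31, so the granule genes did not share a direction. Tnf stood at 1.61 and 1.23 in WT, 0.64 in AID KO and 0.49 in uMT (normexp adjusted p = 0.0492). Cx3cr1, a receptor of terminal effectors, stood at -3.17 in WT and -0.92 in uMT on slide 1, while the WT array of slide 2 was not well above background.

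Of 19 naive and quiescence genes, 4 were higher in both and 7 lower; Foxp1, which keeps naive cells quiescent, differed by -0.37 and -0.38 on one probe and -0.36 and -0.41 on the other. Among activation and inhibitory receptors 6 of 20 were higher in both and 4 lower; Lag3 differed by 0.47 and 1.15 and Pdcd1 by 0.70 and -0.61. Proliferation genes were lower in both in 17 of 32 cases, with small medians of -0.09 and -0.20, and Cdc6, which licenses replication, differed by -0.52 and -0.71. Sterol synthesis genes were lower in both in 11 of 21 cases, with Insig1 at -0.48 in each pair. Gut homing and retinoid genes were lower in both in 9 of 21; P2rx7, a channel opened by extracellular ATP, differed by -0.52 and -0.70 on its brightest probe and by -0.10 and -0.37 on its dimmest. Itgb7 differed by -0.13 and -0.19 and Ccr9 by 0.14 and -0.12. Glycolysis genes had 5 higher and 6 lower of 20, and heat shock genes 1 and 3 of 13. By sign, 29.3% of all features were higher in both and 26.9% lower in both.

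Ribosomal protein genes give a measure of the slides: 30 of 30 were further above WT in uMT than in AID KO, with medians of 0.39 and -0.06, and WT of slide 2 stood 0.56 above WT of slide 1. In PLN, WT of slide 2 likewise stood 0.51 above WT of slide 1. Within the slides, WT MLN minus WT PLN had medians of -0.14 on slide 1 and -0.09 on slide 2. The WT shift between the slides was thus found at both sites and was not particular to the WT MLN array. Whether it has a part in the larger uMT differences was not tested.

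Some genes differed alike at both sites. Utp14b stood at -1.80 and -1.88 in WT, -3.66 in AID KO and -3.43 in uMT, and was lower in PLN by 1.65 and by 1.54. Cyp2d26 and Zbtb10 differed by -1.07 and -1.29 and by -1.20 and -1.10 in MLN, and by -1.01 and -1.18 and -1.15 and -1.01 in PLN. Of the 122 features at least 2-fold lower in both MLN pairs, 21 were so in both PLN pairs, and of the 136 higher ones 7 were. Short structural RNAs made by RNA polymerase III did not follow the site. In MLN, Rn7sk differed by 1.65 in AID KO and 2.02 in uMT, and Rn7s1 by 1.11 and 1.06. In PLN, Rn7sk differed by 2 in AID KO but 0.38 in uMT, and Rn7s1 by 1.12 and 0.17. These were higher in the same 3 knockout arrays. Normexp gave an adjusted p of 0.0451 for Utp14b, 0.00367 for Rn7sk and 0.0108 for Rn7s1. Xist, at 0.38 and 0.20 in WT, stood at -0.36 in AID KO and -0.44 in uMT, and all mice were labelled female.

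Markers of other cells were read from fixed lists, and their part in the results was not tested. Summed levels, in multiples of the array's 75th percentile, ran from 24.3 to 26.4 in WT and 27.4 to 28.7 in the knockouts for 9 tested B cell markers of 21 listed, with Pax5 not well above background in 3 of the 4 arrays. Cd79b stood at 2.82 and 2.76 in WT, 3.02 in AID KO and 3.07 in uMT, so both knockouts lay slightly above both WT arrays, and over the 9 markers the medians were 0.54 in AID KO and -0.02 in uMT; Ms4a1 and Cd79a were not analysed here. For 7 markers of plasmacytoid dendritic cells, the main makers of type I interferon, the sums were 87.4 and 188 in WT, 182 in AID KO and 122 in uMT. The sum followed the slide, but 6 of these 7 markers were higher in both pairs, with medians of 0.36 and 0.28, and in PLN the medians were -0.19 and -0.12. Siglech, a defining marker, differed by -0.14 and 0.28, and Bst2 is also on the interferon list. For 9 markers of NK and innate-like cells the sums were 27 to 28.3 in WT and 24.2 to 24.9 in the knockouts, though Tyrobp differed by 0.93 and 1.01. That sum is mostly Gata3, which differed by -0.11 and -0.32. Of the 9 markers, 4 were higher in both pairs and 1 lower, with medians of 0 in AID KO and 0.21 in uMT. The macrophage sum is mostly Cd68, which differed by -0.45 and -0.84, and of 5 tested markers 1 was higher in both and 2 lower. Macrophage markers summed to 5.28 and 5.46 in WT, 4.21 in AID KO and 3.46 in uMT (5 of 11 tested), dendritic cell markers to 7.27 to 7.7 and 7.81 to 8.65 (3 of 10), CD4+ T cell markers to 9.39 to 10.6 and 10.3 to 12 (8 of 10), and neutrophil markers to 131 to 181 and 147 to 175 (4 of 10). Plasma cell markers summed to 13.8 to 17.4 and 12.3 to 12.5 (4 of 10, Sdc1 and Derl3 not well above background in at least 2 arrays). The plasma cell sum is mostly Xbp1, which differed by -0.16 and -0.50. Of these 4 markers 0 were higher in both pairs and 1 lower, with medians of 0.33 in AID KO and -0.68 in uMT. Stromal markers summed to 1.15 to 1.47 and 1.05 to 1.22 (3 of 11), and erythroid markers to 4.45 to 5.47 in WT, 3.28 in AID KO and 9.29 in uMT (4 of 12). In such bulk samples more cells of a type and more RNA per cell cannot be told apart.

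Position on the array bears on the dim genes. The share of features past 2-fold ran from 11.8% in rows 1 to 32 to 5.37% in the last 32 of 384 rows for the uMT pair, and from 7.24% to 2.59% for the AID KO pair. In PLN it ran from 6.53% to 2.24% for uMT and from 3.38% to 4.87% for AID KO. Rows 1 to 96 held 25.8% of all features but 54 of the 136 features higher in both (39.7%) and 51 of the 122 lower in both (41.8%). Among those well above background on all 4 arrays the shares were 26.8% and 29.6%. Of the 12 named genes with the largest shared lower levels, ranked by the smaller pair difference, 8 were Defa3, Gng13, Vwa5b2, Zfp804b, Cyp2g1, Neto1, Slc17a4 and Gfi1b, all in rows 7 to 75. Each was well above background in both WT MLN arrays and in neither knockout, at least 4.09-fold lower for Defa3, an intestinal defensin, and at least 1.71-fold to 2.84-fold for the other 7. Normexp gave an adjusted p of 0.0103 for Defa3 and 0.0378 for Vwa5b2. In PLN these 8 were dim in WT as well, at -5.45 or below. Among the 12 with the largest shared higher levels, Olfr536 (at least 1.89-fold), Agr2 (at least 1.67-fold) and Eppk1 (at least 1.84-fold) were likewise measured only in the knockouts and lay in rows 23, 43 and 119. Specc1 differed by -2.17 and -2.33 in row 2, and Cdkn1a, in row 370, was at least 2.05-fold lower. Of the immediate early genes named above, Atf3, Dusp4 and Maff also lay in the first rows (28, 15 and 2), and Nr4a1 in row 202. Without rows 1 to 96 the median fitted difference of that list was -0.26, against -0.34 with them. With normexp, 15 of the 32 features called lower (46.9%) and 25 of the 81 called higher (30.9%) lay in rows 1 to 96. The interferon genes named above lay over the whole array, from row 1 (Irf1) to row 369 (Oasl1), and without rows 1 to 96, an alternative chosen after seeing the data, 46 of 55 were still higher in both pairs. In that alternative the median fitted difference of the Schlafen list was 0.35, against 0.76 with all rows. That of the GBP and IRG list was 0.66, against 0.53.

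**Figure D5:**
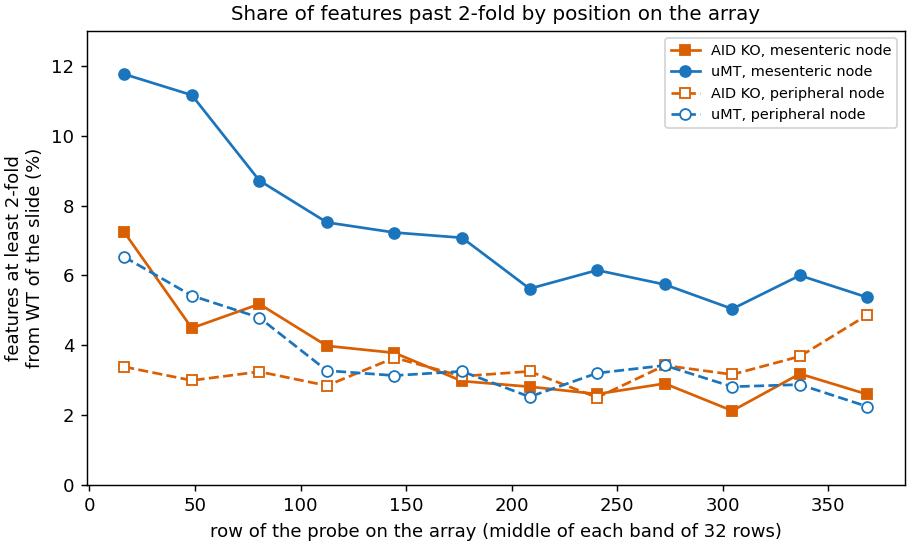
The share of features at least 2-fold from WT of the slide (y axis, %) is plotted against the row of the probe on the array (x axis, bands of 32 rows) for the 4 total CD8 pairs. Both mesenteric pairs have their highest share in the first band, at 11.8% and 7.24%.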

How the data were processed

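Total RNA of sorted CD8+ T cells was labelled with Cy3 and hybridized to 1-colour Agilent arrays, per the labels' protocols. The intensity values that the authors deposited were extracted with Agilent Feature Extraction 11.0.1.1, per the file headers and the submitters' processing notes, and are background-corrected, linear and not normalized between arrays. A deposited log2 value table, whose columns correlated with the scanner values at r of 1.0 but which carries a further normalization not given in the sources used here, served as an alternative. The scanner files give median and background intensity, which the normexp alternative used. Depth does not apply; the number of arrays limits precision. Spots marked as outliers were left out, no spot was saturated, and 2 features therefore lack a difference in the AID KO pair. Probes well above background on 2 of 8 total CD8 arrays were kept (25021 features, 13570 named). Of 56605 probes 32994 were named through unversioned RefSeq transcript or Ensembl identifiers (GRCm38.p6), each with 1 symbol, and 23611 stayed unnamed. Log2 signals minus each array's 75th percentile entered limma 3.58.1 in R 4.3.3 over the 8 total CD8 arrays, with 4 pair terms, knockout in MLN and knockout in PLN, 2 residual degrees of freedom (prior 2.52), two-sided, Benjamini-Hochberg over all features at 0.05. It was tested on simulated data.

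Named genes had the same sign in both MLN pairs: the 12 highest and 12 lowest by the smaller difference, up to 4 members of each list (8 for interferon), and Ly6a, with the side of higher level well above background. Other members were added as examples of a role after their values were seen, as were genes of the shared 2-fold sets. Some further genes that this rule or the lists take in, a targeted gene among them, are not reported here, so the text holds no check of the knockout labels by the targeted genes and the labels are not vouched for. The members and lists were chosen with earlier results of these data known. Alternatives were other normalizations and filters, another fold, all 12 arrays, the MLN arrays alone, no pair terms, and each array left out.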

Additional observations from a re-analysis of the deposited data

Results flagged for a closer look

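Of the genes named in the text, 20 differed from WT in one direction in both MLN pairs and in the other in both PLN pairs. These genes were named partly for their MLN values, and the share of all features with this pattern was not counted. The count is therefore only descriptive. Several PLN differences were small, such as -0.01 for Gbp6 and -0.05 for Cmpk2 in uMT, so their sign alone shows no reversal. The largest fitted MLN difference minus PLN difference was that of Vwa5b2 at -4.52 (PLN pairs 0.25 and 1.47), followed by Agr2 at 3.59 (-0.73 and -0.75), both dim genes measured on only part of the arrays. It was 3.19 for Ifit3b, 3.09 for Ifit3 and 2.89 for Ifit1, whose PLN pairs differed by -0.50 and -0.01, -0.39 and -0.11, and -0.50 and -0.04. Further effectors were Cmpk2 at 2.24, Oas3 at 1.18 and Bst2 at 0.99. Among sensors and Isg15 enzymes it was 1.77 for Dhx58, 1.48 for Ifih1, 2.16 for Isg15 and 1.01 for Herc6. For the regulators Irf8 and Parp14 it was 0.58 and 0.70, for Cxcl10 2.47, for Gbp6 1.07 and for Ly6c2 0.38. In the opposite direction it was -2.62 for Ifna2, -1.02 for Tnf and -0.18 for Jak1. The limma test of this difference passed none of the 20, and the lowest adjusted p was 0.67 (Ifit1, Agr2 and Vwa5b2).

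The GBP and IRG GTPases had medians above 0 in both MLN pairs (0.56 and 0.67) and below 0 in both PLN pairs (-0.03 and -0.05), and the median of the fitted site difference was 0.63. This median was not tested.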

How the results depend on the processing

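The count of features past the limma threshold moved from 0 to 113 with normexp (81 higher, 32 lower) and to 6 with all 12 arrays (2 higher, 4 lower: Ifi44, Cyp2g1, Gng13, Zfp804b and 2 unnamed probes), and the interaction from 0 to 24 with normexp; the cause was not tested. In the other settings it stayed at 0, with between 1734 and 3784 features at an unadjusted p under 0.05. Features past 2-fold in the AID KO pair, the uMT pair and both in the same direction (923, 1837 and 258) were 150, 388 and 41 with normexp, 239, 585 and 72 with the deposited value table, 3008, 3935 and 458 with no filter on dim probes, 329, 698 and 83 for probes well above background on all 4 arrays, and 575, 1207 and 153 without array rows 1 to 96. They were 2994, 5045 and 900 at 1.5-fold and 167, 359 and 39 at 4-fold. The share of higher features among those in both pairs was 52.7%, and 85.4% with normexp, 79.2% with the value table and 67.5% for probes above background on all 4. In the uMT pair it was 51.8%, and 71.4%, 66.2% and 62.5% in these settings. In the AID KO pair it was 44.7%, and 48.7% with normexp, 54.8% with the value table and 42.9% for probes above background on all 4.

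Between 46 and 58 genes of the interferon list were higher in both pairs (46 where 55 were tested), and between 13 and 17 past 2-fold at that threshold. Among the genes named by rule or in the text, none past the threshold in any setting changed sign. Fitted differences that turned were Dnajb1 (-0.01), Cd8a (-0.08), Thy1 (-0.04), Ccr9 (-0.05) and Shisa5 (-0.08) with quantile normalization, and Dnajb1 (-0.01), Thy1 (-0.03), Ccr9 (-0.04), Shisa5 (-0.08) and Siglech (-0.01) with the value table. With normexp they were Ccr9 (-0.02), Pax5 (0.03) and Sdc1 (0.02), with the mean of probes Cd8a (-0.10), Cgas (-0.03), Ifnar1 (0.01), Irf1 (-0.06) and Shisa5 (-0.04), and without rows 1 to 96 Irf1 (-0.30), then read from another probe. Genes whose pairs oppose each other turn when a pair is left out, with ranges of -0.12 to 0.14 for Ccr9, -0.30 to 0.72 for Derl3, -1.5 to 0.76 for Dusp1, -1.30 to 0.35 for Fos, -0.01 to 0.87 for Gzmb, -0.41 to 0.12 for Ifnk, -0.01 to 0.37 for Irf1, -1.37 to 1.18 for Oas1g, -1.45 to 0.54 for Pax5, -0.61 to 0.70 for Pdcd1, -0.87 to 0.40 for Sdc1, -0.05 to 0.19 for Shisa5, -0.14 to 0.28 for Siglech and -0.09 to 0.45 for Socs3. Without the uMT pair the lowest adjusted p was 0.532 and without the AID KO pair 0.175, since 1 residual degree of freedom remains. The fit without the pair terms (no replicate block) passed 0, at a lowest adjusted p of 0.057, and the MLN arrays alone with a slide replicate block passed 0, at 0.309. With 1 array per genotype and site, a difference between AID KO and uMT is no difference between genotypes: slide and genotype cannot be told apart.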
